A study of Mus musculus with 16 samples.

Results

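The Notch pathway and the segmentation genes linked to it were followed in differentiating mouse embryonic stem cells through 10 genes: the receptor Notch1, the ligands Dll1 and Dll3, the glycosyltransferase Lfng, the transcriptional repressors Hes1, Hes7, Hey1 and Hey2, the feedback regulator Nrarp and the segmental transcription factor Mesp2. The genes were chosen by name, with no threshold on their measured values, but with earlier results of these data known. On the arrays they were covered by 12 of 60273 probes. Of these probes, 2, the second ones for Dll1 and Notch1, were named by the gene symbol in the gene name column. The other 10 were named through their RefSeq transcript accession. Of the 12 probes, 11 exceeded background on all arrays of some group and entered the tests, so that all 10 members were among the 30968 genes tested. The probe left out was the second one for Dll1, a dim probe for an Ensembl transcript, which exceeded background on 1 of 16 arrays, in DMSO at 24 h.

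The cells were of the CGR8-Myh6-GFP line, mouse embryonic stem cells in which a promoter active in cardiomyocytes drives GFP, and they differentiated towards heart muscle on multiwell plates without sorting. From day 4 they received DMSO as vehicle, the dry ethanolic hawthorn (Crataegus) leaf and flower extract WS1442 at 0.25 mg/ml, or MeOH eluate at 0.1 mg/ml, a fraction of this extract enriched in oligomeric procyanidins, for 6 h or 24 h. Each of the 6 groups held cultures of the same line, with n = 2 for DMSO and n = 3 for either extract at each time point, and each culture was hybridised to 1 one-colour Agilent array. The 2 extracts were thus given at different concentrations, and no dose series was measured. The labels do not say whether replicates were differentiated separately, so the p-values measure the spread between these samples, which may be partly technical.

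All 8 arrays of the 6 h groups lay on 1 slide and all 8 arrays of the 24 h groups on another, so a difference in level between time points cannot be told apart from a difference between slides. Treatments were therefore compared with DMSO within a time point. Between 55.1% and 63.0% of gene spots were well above background, RNA integrity numbers lay between 8.6 and 10, and replicates of a group correlated with r between 0.984 and 0.995 over probes. Cy3 incorporation at 24 h was 25.8 to 26.1 pmol per microgram in DMSO and 27.1 to 32.8 in the treated cultures, and at 6 h it was 23.5 to 26.4 in DMSO, 26.5 to 27.6 with WS1442 and 24.7 to 29.5 with MeOH eluate. Its part in the results was not tested. The GFP reporter reads out the Myh6 promoter, and Myh6 itself was not well above background on the arrays of any whole group, whereas 9 of 10 cardiac markers and 6 of 6 pluripotency markers were measured.

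Notch signaling passes between neighboring cells. A Delta or Jagged ligand on the sending cell binds a Notch receptor, the receptor is cleaved, and its intracellular part enters the nucleus, where it joins the DNA-binding protein RBPJ and switches on genes of the Hes and Hey families and Nrarp. In presomitic mesoderm the pathway works in cycles: Hes7 represses its own gene and Lfng, Lfng modifies the sugars on Notch, and Mesp2 then sets the boundary of the next somite. In the developing heart and vessels Hey1 and Hey2 are Notch effectors.

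The stretches in front of 4 members are given here because they hold letters that RBPJ or the Hes and Hey repressors are known to bind. A relation between these letters and the measured changes was not tested. The sequences are the 250 bases before the transcription start in RefSeq (GRCm38.p6), written 5′ to 3′ on the strand of the gene. Capitals mark TGGGAA, the core letters of an RBPJ site, the E box CACGTG and the N box CACNAG, on either strand. The window of Lfng lies at chr5:140607091-140607340 (plus strand), that of Nrarp at chr2:25180508-25180757 (plus strand), that of Hey2 at chr10:30842784-30843033 (minus strand) and that of Notch1 at chr2:26503823-26504072 (minus strand).
Lfng: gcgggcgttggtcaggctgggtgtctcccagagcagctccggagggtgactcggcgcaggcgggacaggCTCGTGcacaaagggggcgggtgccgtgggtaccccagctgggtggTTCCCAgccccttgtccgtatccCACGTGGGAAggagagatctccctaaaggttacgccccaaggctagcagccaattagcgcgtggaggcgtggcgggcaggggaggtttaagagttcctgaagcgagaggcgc
Nrarp: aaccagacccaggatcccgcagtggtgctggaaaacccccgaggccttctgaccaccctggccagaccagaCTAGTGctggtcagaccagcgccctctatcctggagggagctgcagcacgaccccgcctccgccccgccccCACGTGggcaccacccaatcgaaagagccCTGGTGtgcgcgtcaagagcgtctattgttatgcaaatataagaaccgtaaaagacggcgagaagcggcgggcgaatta
Hey2: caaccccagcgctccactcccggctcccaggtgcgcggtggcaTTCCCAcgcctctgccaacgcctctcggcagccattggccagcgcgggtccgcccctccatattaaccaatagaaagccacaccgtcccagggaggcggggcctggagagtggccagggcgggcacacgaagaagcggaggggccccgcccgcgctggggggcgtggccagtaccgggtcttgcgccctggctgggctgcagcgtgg
Notch1: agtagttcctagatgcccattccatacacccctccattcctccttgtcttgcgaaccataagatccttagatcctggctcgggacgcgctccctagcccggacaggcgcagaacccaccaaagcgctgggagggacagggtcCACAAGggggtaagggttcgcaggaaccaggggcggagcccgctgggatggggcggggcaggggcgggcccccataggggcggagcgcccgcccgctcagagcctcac

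In the Lfng window TGGGAA occurred 2 times, and the copy at positions -108 to -103 from the start lay within the longer RBPJ site GTGGGAA and overlapped an E box at -112 to -107. The Hey2 window held GTGGGAA on the other strand at -207 to -201. Nrarp had an E box at -108 to -103 and 2 N boxes but no TGGGAA, and Notch1 had only an N box at -108 to -103. Among 32536 such windows of mouse genes, 21.6% held TGGGAA, 5.43% GTGGGAA, 6.04% CACGTG and 36.7% CACNAG. A window was given for 8 of the 10 members and was lacking for Hes1 and Hey1. The Hes7 window also held GTGGGAA and an N box, whereas those of Dll1, Dll3 and Mesp2 held none of these letters. The T-box core AGGTGT, present in 11.9% of all windows, was found in no member window.

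Within the pathway, the receptor and the enzyme that modifies it were higher than in DMSO after 6 h with either extract, and the effector gene Hes1 was lower with MeOH eluate. At 6 h, MeOH eluate changed 7 of 10 members, with Notch1, Lfng, Dll3 and Mesp2 higher and Hes1, Hey1 and Nrarp lower, and WS1442 changed 2, Notch1 and Lfng, both higher. At 24 h, WS1442 left Dll3 higher and Hes1 and Hey2 lower, and MeOH eluate left Hes1, Hey1 and Hey2 lower. Hey2 entered the tests only through DMSO at 24 h, the group where it was highest and the only one in which all its arrays were well above background, so its 2 calls at 24 h follow in part from the filter on dim probes. A change here means an adjusted p under 0.05 in a limma model fitted over all probes, with Benjamini-Hochberg adjustment. Over all genes tested, the share called at this threshold was 5.1% for WS1442 at 6 h, 16.9% for MeOH eluate at 6 h, 24.4% for WS1442 at 24 h and 17.8% for MeOH eluate at 24 h. Split by direction, 3.81% of all genes were called higher and 1.29% lower with WS1442 at 6 h, 8.37% and 8.51% with MeOH eluate at 6 h, 12.4% and 12% with WS1442 at 24 h, and 9.34% and 8.48% with MeOH eluate at 24 h. The count of 7 of 10 for MeOH eluate at 6 h therefore stood beside a background of 16.9%, whereas 3 of 10 at 24 h, Hey2 among them for either extract, stood beside 24.4% and 17.8%. Since the members were chosen with earlier results of these data known, their counts are not independent of the data. Higher genes made up 50.7% of all calls for WS1442 at 24 h and 52.4% for MeOH eluate at 24 h, or 40.4% and 42.4% when each array was scaled to its 75th percentile in place of quantile normalization. The same DMSO cultures served both extracts at each time point, so their counts are not independent of each other.

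The count of 7 depended on the settings, since it was 3 with scaling to the 75th percentile, 8 with array weights, where Dll1 was added, and between 2 and 5 when 1 culture was left out. Hes1, Notch1 and Lfng were the members called at 6 h with MeOH eluate in all 10 alternative settings other than the pairwise test named in the study's methods, and Hes1 and Notch1 in all 5 left-out fits too.

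**Figure D1:**
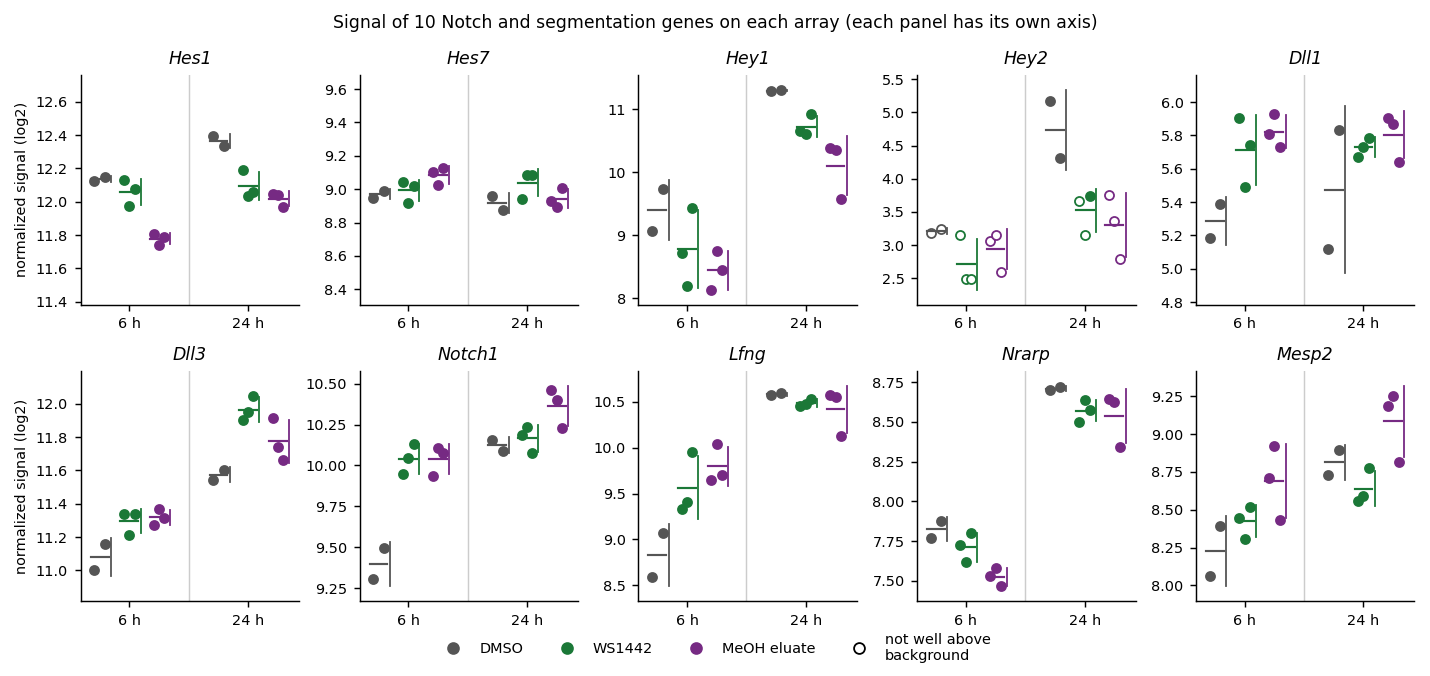
Normalized signal on the log2 scale (y axis) on each of the 16 arrays for the 10 genes, by treatment and time point (x axis). Each point is 1 culture, horizontal lines are group means, vertical bars the SD, and open points are arrays not well above background; Notch1 and Lfng of the DMSO cultures at 6 h lie below all treated cultures of that time, and Hes1 with MeOH eluate lies below DMSO at both time points.

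Notch1, the only receptor among the members, had a log2 signal of 9.30 and 9.50 in the DMSO cultures at 6 h. With WS1442 it measured 9.95, 10.05 and 10.13, and with MeOH eluate 9.93, 10.11 and 10.07. Every treated culture was above both DMSO cultures, and the 2 treatments overlapped each other. The rise was 0.64 ± 0.08 on the log2 scale (SE) with WS1442, or 1.56-fold, at an adjusted p of 0.00106, and 0.64 ± 0.08 with MeOH eluate at an adjusted p of 0.00016.

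At 24 h the DMSO cultures gave 10.16 and 10.09 for Notch1, the WS1442 cultures 10.19, 10.23 and 10.08 and the MeOH eluate cultures 10.46, 10.40 and 10.23. WS1442 overlapped DMSO, while MeOH eluate lay above it. The differences from DMSO were 0.04 ± 0.08 (adjusted p = 0.776) and 0.24 ± 0.08 (adjusted p = 0.067). For WS1442, the effect at 24 h was smaller than that at 6 h by a tested margin, with a log2 difference of -0.60 ± 0.12 and an adjusted p of 0.00681, against a share of 12.2% of all genes called in this comparison. For MeOH eluate the same difference was -0.40 ± 0.12 (adjusted p = 0.0613), so a change of its effect was not established.

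A second Notch1 probe, for the Ensembl transcript ENSMUST00000131393, was dim and did not follow the first. Its log2 signal lay between 4.07 and 4.93 over all arrays, and it was not called in any comparison. At 6 h its differences from DMSO were 0.03 ± 0.21 with WS1442 and -0.27 ± 0.21 with MeOH eluate. The highest values of this probe, 4.60, 4.91 and 4.93, came from MeOH eluate at 24 h, 0.55 ± 0.21 above DMSO (adjusted p = 0.0821). The results for Notch1 at 6 h and for the change of its effect between time points thus rest on the probe for the RefSeq transcript.

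Lfng, which encodes the Fringe enzyme that extends the O-fucose on Notch, measured 8.59 and 9.07 in DMSO at 6 h. With WS1442 the log2 signals were 9.33, 9.40 and 9.96, and with MeOH eluate 9.65, 10.04 and 9.70. The treated cultures were all above the DMSO cultures, but the 2 DMSO cultures lay farther from each other than the higher of them lay from the lowest treated culture. The rise was 0.97 ± 0.19 with MeOH eluate, or 1.96-fold (adjusted p = 0.00268), and 0.73 ± 0.19 with WS1442, or 1.66-fold (adjusted p = 0.0358). Both calls were lost without the first DMSO culture at 6 h, which left rises of 0.73 (adjusted p = 0.0671) and 0.50 (adjusted p = 0.456), and the WS1442 call also without the third WS1442 culture (0.54, adjusted p = 0.123).

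After 24 h, Lfng was not called with either extract. The DMSO cultures measured 10.57 and 10.60, the WS1442 cultures 10.45, 10.48 and 10.54, and the MeOH eluate cultures 10.58, 10.55 and 10.13. The WS1442 cultures lay just below DMSO, and MeOH eluate overlapped DMSO, with the third MeOH eluate culture lowest. The differences were -0.10 ± 0.19 and -0.17 ± 0.19, with 95% intervals of -0.49 to 0.30 for WS1442 and -0.56 to 0.23 for MeOH eluate. The effect of MeOH eluate at 24 h was below its effect at 6 h, with a difference of -1.135 ± 0.26 on the log2 scale (adjusted p = 0.0154, with 7.43% of all genes called). Without the first DMSO culture at 6 h it was -0.90 (adjusted p = 0.104). For WS1442 the difference was -0.83 ± 0.26 (adjusted p = 0.0536).

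**Figure D2:**
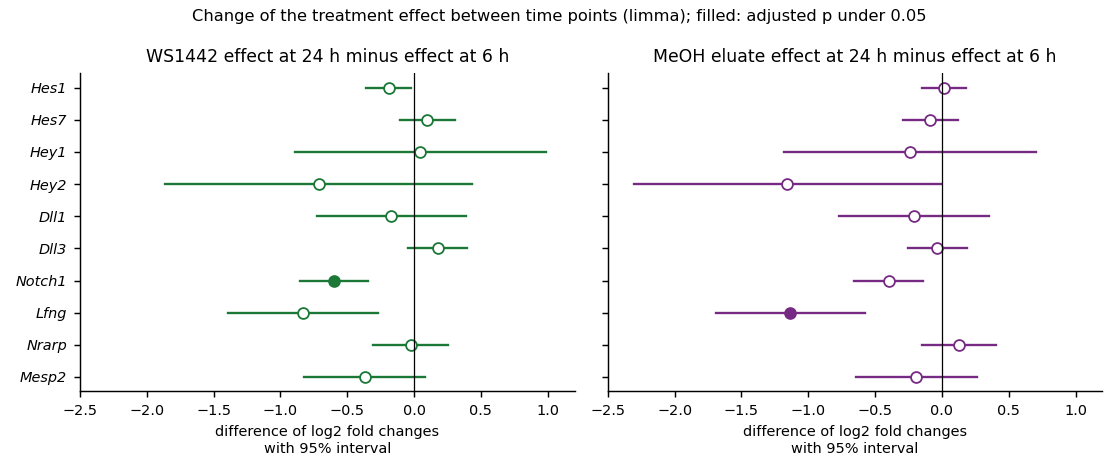
Difference between the treatment effect at 24 h and at 6 h for each member (x axis, difference of log2 fold changes with its 95% interval), WS1442 on the left and MeOH eluate on the right. Filled points passed an adjusted p of 0.05, which Notch1 did for WS1442 at -0.60 and Lfng for MeOH eluate at -1.135.

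The 24 h DMSO level of Lfng was 10.58 against 8.83 at 6 h, and that of Notch1 was 10.12 against 9.40. These level differences cannot be told apart from slide. In both genes the means of the treated groups at 6 h lay between the DMSO means of the 2 time points.

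Of the 2 Delta ligands among the members, Dll3 was called in 2 comparisons with DMSO and Dll1 in none. Dll3, a divergent ligand that acts within the same cell and is needed for somite formation, had a log2 signal of 11.54 and 11.60 in DMSO at 24 h, and 11.90, 11.95 and 12.04 with WS1442. MeOH eluate gave 11.91, 11.74 and 11.66. All treated cultures exceeded DMSO. The rise with WS1442 was 0.39 ± 0.07, or 1.31-fold (adjusted p = 0.00147), and was called in every left-out fit, while that with MeOH eluate was 0.20 ± 0.07 (adjusted p = 0.0764).

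At 6 h, Dll3 measured 11.00 and 11.16 in DMSO, 11.34, 11.21 and 11.34 with WS1442, and 11.27, 11.37 and 11.31 with MeOH eluate. The differences were 0.21 ± 0.07 (adjusted p = 0.115) and 0.24 ± 0.07 (adjusted p = 0.039), and the MeOH eluate call held in only 1 of 5 left-out fits. Dll1, the ligand that activates Notch in neighboring presomitic cells, gave 5.19 and 5.39 in DMSO at 6 h, 5.90, 5.49 and 5.74 with WS1442, and 5.81, 5.93 and 5.73 with MeOH eluate. Although no treated culture overlapped DMSO, the differences of 0.42 ± 0.19 (adjusted p = 0.228) and 0.54 ± 0.19 (adjusted p = 0.0629) did not pass. In DMSO at 24 h the 2 Dll1 values were 5.12 and 5.83 and overlapped the treated values, which ranged from 5.64 to 5.90. Without the second of these DMSO cultures, the Dll1 differences at 24 h were 0.61 for WS1442 and 0.68 for MeOH eluate. Without the first they were -0.10 and -0.03. The direction of the Dll1 difference at 24 h thus depended on which DMSO culture was kept.

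Hes1, a repressor that is a direct target of Notch in many tissues and oscillates in embryonic stem cells, was called lower in more comparisons with DMSO than any other member. In DMSO at 6 h the log2 signal was 12.13 and 12.15, with WS1442 12.13, 11.97 and 12.08, and with MeOH eluate 11.80, 11.74 and 11.79. MeOH eluate lay below both other groups without overlap, and WS1442 overlapped DMSO. The fall with MeOH eluate was -0.36 ± 0.06, or 1.28-fold (adjusted p = 0.000543). With WS1442 the difference was -0.08 ± 0.06 (adjusted p = 0.508).

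The direct comparison of the extracts at 6 h gave -0.28 ± 0.05 for Hes1, with lower signal in MeOH eluate (adjusted p = 0.00336). It was the only member called in this comparison, where 12.1% of all genes were called, and it was called in all 6 fits that left out a culture. At 24 h both extracts were below DMSO. DMSO measured 12.39 and 12.33, WS1442 12.19, 12.03 and 12.06, and MeOH eluate 12.05, 12.04 and 11.97. The falls were -0.27 ± 0.06 (adjusted p = 0.00284) and -0.35 ± 0.06 (adjusted p = 0.000465), and the extracts themselves differed by -0.08, with a 95% interval of -0.18 to 0.03. All Hes1 calls against DMSO held in every left-out fit, and the largest amounted to 1.28-fold.

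Hes7, the core repressor of the segmentation clock, was measured on every array and was called in none of the 8 comparisons. Its log2 signal lay between 8.87 and 9.13 over all 16 arrays. The 95% intervals of the differences from DMSO were -0.12 to 0.17 for WS1442 and -0.03 to 0.26 for MeOH eluate at 6 h, and -0.02 to 0.27 and -0.12 to 0.17 at 24 h, so that a change of more than 0.27 on the log2 scale lay outside all 4.

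Hey1 stood lower in treated cultures at both times, but with a wide spread at 6 h. The DMSO cultures measured 9.06 and 9.74 at 6 h, the WS1442 cultures 8.72, 8.19 and 9.43, and the MeOH eluate cultures 8.14, 8.75 and 8.44. Only MeOH eluate was free of overlap with DMSO. The differences were -0.62 ± 0.31 (adjusted p = 0.308) and -0.95 ± 0.31 (adjusted p = 0.0496), and the latter was called in 1 of 5 left-out fits.

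At 24 h, Hey1 was 11.28 and 11.30 in DMSO, 10.64, 10.60 and 10.92 with WS1442, and 10.38, 10.35 and 9.57 with MeOH eluate. The 3 groups did not overlap, in the order DMSO, WS1442 and MeOH eluate from high to low. MeOH eluate was lower by -1.19 ± 0.31, or 2.29-fold (adjusted p = 0.0151), while the -0.57 ± 0.31 of WS1442 (adjusted p = 0.208) and the -0.62 ± 0.28 between the extracts (adjusted p = 0.164) did not pass. The MeOH eluate call was lost without either DMSO culture (adjusted p = 0.0794 and 0.0602) or without the third MeOH eluate culture (-0.93, adjusted p = 0.0689).

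Hey2, a relative of Hey1 that is expressed in ventricular myocardium and arteries, was near the limit of detection. None of the 8 arrays at 6 h was well above background for it. At 24 h the DMSO cultures measured 5.17 and 4.31, both above background. WS1442 gave 3.67, 3.16 and 3.74, of which 1 of 3 exceeded background, and MeOH eluate gave 3.75, 3.37 and 2.79, of which none did. Treated values were all below both DMSO values. For MeOH eluate the mean signal was at least 1.85-fold below the DMSO mean, a bound that was not itself tested. Each MeOH eluate array entered this bound with the higher of its own signal and the lowest signal of any probe well above background. The bound compares group means only and does not take in the spread of the DMSO cultures. The limma call for MeOH eluate (adjusted p = 0.0165) belongs to the fitted difference, for which no MeOH eluate value was well above background. The difference of -1.21 ± 0.38 fitted for WS1442 (adjusted p = 0.0315) rests on values of which 2 of 3 in WS1442 were not well above background. With only probes above background on all 16 arrays Hey2 was not tested. Leaving out the first DMSO culture ended both calls (adjusted p = 0.225 and 0.327), as did leaving out the third MeOH eluate culture (adjusted p = 0.0679), the second WS1442 culture (0.0977) or the third WS1442 culture (0.0506) for the respective extract.

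Since these are unsorted cultures, fewer cells of a type and less RNA per cell cannot be told apart. At 24 h the mean signals of vessel and heart cell markers were lower with both extracts. The mean signal of Hey1 was also lower with both, but it was called only with MeOH eluate. Hey2 was lower too, but it entered the tests only through DMSO at 24 h. Most of its treated values were not well above background. The mean log2 signal of 7 endothelial and blood precursor markers (Kdr, Etv2, Tal1, Pecam1, Cdh5, Tek and Tie1) was 7.08 to 7.24 in DMSO, 6.69 to 6.88 with WS1442 and 6.14 to 6.26 with MeOH eluate, and of the 7 genes 2 and 3 were called lower and none higher. Cdh5 was not well above background on any MeOH eluate array at 24 h. For 9 cardiac markers the means were 7.36 to 7.43, 7.14 to 7.26 and 6.70 to 6.88, with 4 called lower and 1 higher for WS1442 and 5 called lower for MeOH eluate. Over all genes, 12% were called lower with WS1442 and 8.48% with MeOH eluate at 24 h. The median differences of the 2 lists were -0.03 and -0.17 with WS1442, where 2 of 7 and 4 of 9 markers were higher than in DMSO. With MeOH eluate they were -0.39 and -0.51. At 6 h with MeOH eluate, where Hey1 was called lower, the medians were 0.07 and -0.01. There 1 endothelial marker was called lower and 3 cardiac markers were called higher. The part of these markers in the Hey1 and Hey2 results was not tested.

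Primitive streak markers (T, Mixl1, Eomes and Mesp1) had lower mean signals than DMSO with both extracts at both time points. At 6 h their mean log2 signal was 8.87 to 8.90 in DMSO, 8.44 to 8.55 with WS1442 and 7.71 to 7.87 with MeOH eluate. Of the 4 genes, 2 and 3 were called lower, and all 4 were above background on every 6 h array. Over all genes, 1.29% were called lower with WS1442 and 8.51% with MeOH eluate at 6 h. At 24 h the means of the primitive streak markers were 8.51 to 8.56, 8.12 to 8.21 and 7.90 to 7.96. Again 2 of 4 were called lower with WS1442 and 3 of 4 with MeOH eluate, beside 12% and 8.48% of all genes. Of 5 measured paraxial mesoderm markers, Foxc2 was called higher in all 4 comparisons and Msgn1 lower with MeOH eluate at both times, and the list mean at 6 h was 5.76 to 5.91 in DMSO, 6.24 to 6.48 with WS1442 and 6.35 to 6.51 with MeOH eluate. Foxc2, at 1.85 and 3.24 above DMSO, made up most of this shift, since the median differences of the list were 0.15 and 0.19 and with MeOH eluate Msgn1 and Tcf15 were at -0.57 and -0.28. Neural markers at 24 h had means of 8.41 to 8.65 in DMSO, 8.90 to 8.95 with WS1442 and 8.80 to 8.95 with MeOH eluate. Means of 6 pluripotency markers at 6 h were 9.25 to 9.30, 9.13 to 9.27 and 8.82 to 9.05 in DMSO, WS1442 and MeOH eluate, and 8.66 to 8.84, 8.54 to 8.72 and 8.78 to 8.97 at 24 h. For 3 endoderm markers they were 7.93 to 7.98, 7.71 to 7.83 and 7.41 to 7.53 at 6 h, and 8.41 to 8.50, 8.09 to 8.18 and 7.76 to 8.08 at 24 h. What part these markers had in the members' results was not tested.

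Nrarp, which encodes an ankyrin repeat protein that promotes loss of the Notch intracellular domain, had log2 signals of 7.77 and 7.88 in DMSO at 6 h, 7.72, 7.62 and 7.80 with WS1442, and 7.53, 7.58 and 7.47 with MeOH eluate. MeOH eluate was below all other 6 h cultures. Its difference from DMSO was -0.30 ± 0.09 (adjusted p = 0.0391), was called in 1 of 5 left-out fits, and was not accompanied by a call at 24 h, where the differences were -0.14 ± 0.09 and -0.17 ± 0.09 (adjusted p = 0.31 and 0.243).

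Mesp2, which marks the anterior presomitic mesoderm, measured 8.06 and 8.39 in DMSO at 6 h, 8.44, 8.31 and 8.52 with WS1442, and 8.71, 8.92 and 8.43 with MeOH eluate. The rise with MeOH eluate was 0.46 ± 0.15 (adjusted p = 0.0482) and was called in 2 of 5 left-out fits. At 24 h the MeOH eluate cultures measured 9.19, 9.25 and 8.81, the WS1442 cultures 8.56, 8.59 and 8.77, and DMSO 8.73 and 8.90. The extracts did not overlap, and Mesp2 was the only member called between them at 24 h, higher in MeOH eluate by 0.44 ± 0.13 (adjusted p = 0.0392, with 14.3% of all genes called), in 1 of 6 left-out fits. Neither extract was called against DMSO at this time, with differences of -0.17 ± 0.15 for WS1442 and 0.27 ± 0.15 for MeOH eluate.

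**Figure D3:**
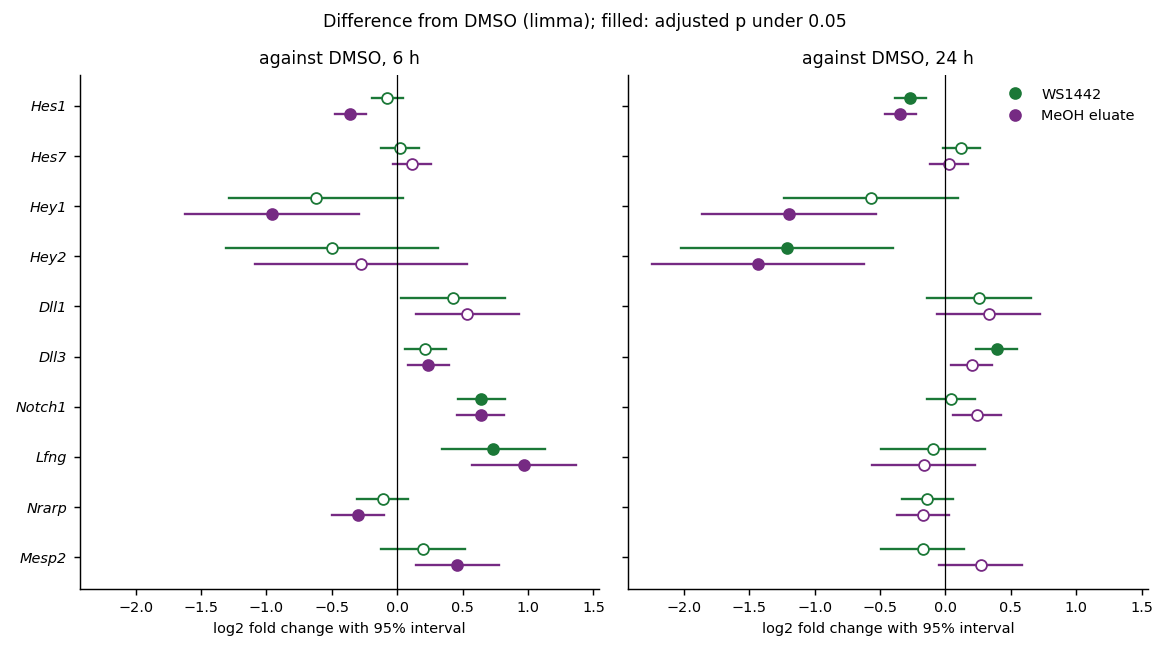
Log2 fold change against DMSO with its 95% interval (x axis) for each member (y axis) at 6 h on the left and at 24 h on the right, WS1442 in green and MeOH eluate in purple. Filled points passed an adjusted p of 0.05: at 6 h Notch1 and Lfng lie to the right for both extracts, and at 24 h Hes1 and Hey2 lie to the left for both, where all Hey2 arrays were well above background only in DMSO at 24 h.

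Apart from Hes1 at 6 h and Mesp2 at 24 h, no member was called between the extracts, which were given at 0.25 and 0.1 mg/ml. The 95% intervals of the differences at 6 h were -0.17 to 0.16 for Notch1 and -0.12 to 0.59 for Lfng, so the extracts lay close together for Notch1, while a higher Lfng signal with MeOH eluate was within the interval. For Hey2 at 24 h the size of the difference between the extracts is not given, since 5 of their 6 values were not well above background.

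The study used limits of an unadjusted p under 0.05 and a change of more than 2-fold, for genes regulated by both extracts. Here the 2 limits were applied to the limma fit in each comparison by itself. None of the members passed at 6 h, Hey2 passed with WS1442 at 24 h and Hey1 and Hey2 passed with MeOH eluate at 24 h. For Hey2 this rests on fitted values of arrays mostly not well above background, and its bound with MeOH eluate, at least 1.85-fold, is under that limit. The share of all genes past these limits was 0.433% and 2.1% at 6 h and 2.04% and 2.95% at 24 h. The median log2 difference of the members from DMSO was 0.11 and 0.18 at 6 h and -0.12 and -0.07 at 24 h, beside medians between -0.01 and 0.04 over all genes. Apart from Hey2, which was not well above background on any 6 h array, all 9 members stood without overlap to DMSO for MeOH eluate at 6 h, 6 above and 3 below, where 50.1% of all genes did so. The number was 4 of 9 for WS1442 at 6 h (35.5% of all genes). With Hey2 included it was 6 of 10 for WS1442 at 24 h (51.1%) and 6 for MeOH eluate at 24 h (43.3%).

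Other genes of the pathway were read from lists, each at its kept probe of highest mean signal. A second kept probe of Jag2, Notch4, Rfng and Mib2 was not read. The counts of calls in the lists stand beside shares over all genes. These shares were 5.1% with WS1442 and 16.9% with MeOH eluate at 6 h, and 24.4% and 17.8% at 24 h. Some counts lay near these shares. Examples at 24 h are 4 of 18 presomitic and somite patterning genes with WS1442, and 3 of 14 genes of the nuclear complex and its regulators with MeOH eluate. Of 7 further ligands and receptors, MeOH eluate changed 4 at each time point and WS1442 changed 1 at 6 h and 5 at 24 h. Dll4, the Delta ligand of arterial endothelium, was lower with MeOH eluate at 6 h (-0.78 ± 0.11, adjusted p = 0.000207), and at 24 h with both extracts (-0.37 ± 0.11 for WS1442 and -0.73 ± 0.11 for MeOH eluate). Jag1, a ligand of the Jagged family, was lower in the same 3 comparisons by -0.44, -0.39 and -0.56. Dlk1, an atypical ligand that lacks the Notch-binding domain of the others, had the largest change on this list, -1.40 ± 0.09 with MeOH eluate at 24 h (adjusted p = 1.34e-07), beside -0.64 ± 0.09 with WS1442.

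The receptor Notch2 was higher in both 6 h comparisons, by 0.33 ± 0.07 with WS1442 and 0.39 ± 0.07 with MeOH eluate, and with MeOH eluate at 24 h by 0.28 ± 0.07. Jag2 was higher with MeOH eluate at 6 h (0.38 ± 0.09) and with WS1442 at 24 h (0.50 ± 0.09), and the endothelial receptor Notch4 was higher with WS1442 at 24 h (0.50 ± 0.12). The list medians were 0.06 (WS1442) and -0.16 (MeOH eluate) at 6 h, and 0.14 and 0.03 at 24 h.

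Of 14 tested genes for ligand and receptor processing, 3 were called with either extract at 6 h, all higher, and 4 with WS1442 and 5 with MeOH eluate at 24 h, 2 and 4 of them higher. Neurl1a, a ubiquitin ligase that acts on ligands, was higher in all 4 comparisons, by 0.37 and 0.41 at 6 h and 0.34 and 0.26 at 24 h (SE 0.07). Psen2, a catalytic subunit of gamma-secretase, rose with WS1442 at 6 h (0.33) and with MeOH eluate at both times (0.28 and 0.34). Rfng, a relative of Lfng, fell at 24 h, with -0.40 ± 0.06 for WS1442 and -0.24 ± 0.06 for MeOH eluate. Pofut1, the O-fucosyltransferase that acts before Fringe, rose only in the WS1442 comparison at 6 h (0.30 ± 0.07), the protease gene Adam10 with MeOH eluate at 24 h (0.35 ± 0.11) and Mib2 with WS1442 at 24 h (0.26 ± 0.08). The medians were 0.16, 0.11, 0.08 and -0.02.

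The nuclear complex and its regulators, 14 tested genes, had no call with WS1442 at 6 h in limma, where 3 genes had an unadjusted p under 0.05, and 2 calls with MeOH eluate at 6 h, both lower. At 24 h, 7 were called with WS1442, 5 of them higher, and 3 with MeOH eluate. Dtx4, a Deltex ubiquitin ligase, rose by 1.07 ± 0.15 with MeOH eluate at 24 h (adjusted p = 0.000154) and by 0.48 ± 0.15 with WS1442. The coactivators Maml1 and Maml2 rose with WS1442 at 24 h (0.45 and 0.37) and Maml3 fell with MeOH eluate at 6 h (-0.33). Spen, a corepressor, rose with WS1442 at 24 h (0.34). Median differences were 0.09, -0.04, 0.08 and 0.05.

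Of 5 other Hes and Hey genes, Hes5, a Notch target of neural progenitors, fell by -1.18 ± 0.10 with MeOH eluate at 6 h (adjusted p = 1.6e-06) and by -0.51 ± 0.10 and -0.50 ± 0.10 at 24 h, with -0.23 ± 0.10 for WS1442 at 6 h (adjusted p = 0.188). Hes6, which antagonizes Hes1, rose with MeOH eluate at 6 h (0.21 ± 0.06) and with both extracts at 24 h (0.43 ± 0.06 and 0.35 ± 0.06). Hes2 rose with WS1442 at 24 h (0.79 ± 0.26). WS1442 at 6 h gave no call by limma, with 2 genes at an unadjusted p under 0.05. Hes1 and Hes5 were thus lower and Hes6 higher in the 3 comparisons other than WS1442 at 6 h.

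In the list of presomitic and somite patterning genes, 18 of 21 genes were tested, and Tbx18, Pax3 and Pcdh8 were too dim. WS1442 changed 5 at 6 h and 4 at 24 h, and MeOH eluate 8 and 7. The forkhead genes Foxc1 and Foxc2, which are needed for paraxial mesoderm and somites and also act in heart and vessels, rose in all 4 comparisons, Foxc2 by 1.85 and 3.24 at 6 h and 0.78 and 1.44 at 24 h (SE 0.11) and Foxc1 by 1.01, 1.58, 0.81 and 0.76 (SE 0.16). Epha4, an ephrin receptor of the somite boundary that lies downstream of Mesp2, rose with WS1442 at 6 h (0.72 ± 0.19) and with MeOH eluate at 6 h and 24 h (0.94 and 0.61).

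T, the marker of the primitive streak, fell by -1.28 ± 0.11 with MeOH eluate at 6 h and was not called elsewhere. Cyp26a1, which degrades retinoic acid, fell with both extracts at 6 h (-0.44 and -1.27) and with MeOH eluate at 24 h (-1.08, SE 0.11), and Aldh1a2, which makes retinoic acid, rose at 24 h by 2.39 and 2.77 (SE 0.15). The list held calls in both directions in each comparison, with medians of 0.14, 0.19, 0.19 and 0.01.

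Among 16 genes of the clock that cycle with Wnt and FGF signals, 2 were called lower and 1 higher with WS1442 at 6 h, and 7 and 1 with MeOH eluate at 6 h. At 24 h the counts were 6 and 1 with WS1442, and 7 and 3 with MeOH eluate. Over all genes the shares called lower and higher were, in the same order, 1.29% and 3.81%, 8.51% and 8.37%, 12% and 12.4%, and 8.48% and 9.34%. Dusp6, a phosphatase induced by FGF and ERK, fell in all 4 comparisons, by -0.40 and -1.15 at 6 h and -0.24 and -0.56 at 24 h (SE 0.06). Dkk1, a secreted Wnt inhibitor, fell with both extracts at 6 h (-0.74 and -0.89) and rose with MeOH eluate at 24 h (0.88, SE 0.14). Myc fell with MeOH eluate at 6 h and with both extracts at 24 h (-0.40, -0.57 and -1.01), Tnfrsf19 with MeOH eluate at 6 h (-1.03) and Efna1 with both at 24 h (-0.69 and -1.09), while Bcl9l rose with both at 6 h (0.58 and 0.91). The medians were -0.04, -0.27, -0.14 and -0.35.

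**Figure D4:**
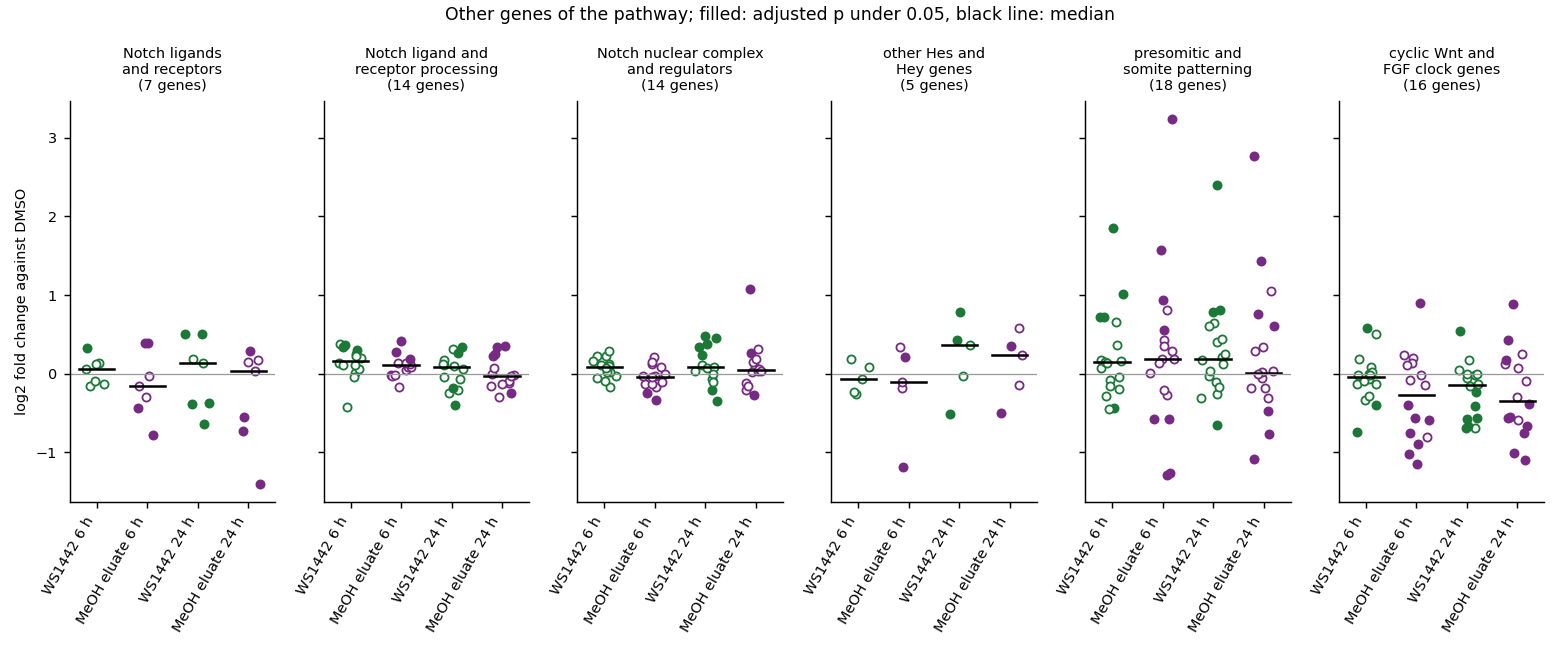
Log2 fold change against DMSO (y axis) of the other genes of the pathway in 6 lists, for each extract and time point (x axis). Each point is 1 gene, filled where the adjusted p was under 0.05, and black lines are list medians; the widest spread is in the presomitic list, where Foxc2 with MeOH eluate at 6 h is at 3.24.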

How the data were processed

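RNA of 16 cultures was labelled with Cy3 and hybridised to one-colour Agilent ArrayXS Mouse arrays. The deposited scanner intensities were background corrected by the authors' Feature Extraction software (version 11.5.1.1) and not normalized between arrays. The authors also deposited a table of quantile normalized linear intensities. Each of its 16 columns correlated best with its own array, and its log2 values differed from those used here by at most 0.0367 for the members.

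For the values used here, log2 processed intensities of 61473 gene spots per array were quantile normalized over all 16 arrays with limma 3.58.1 (R 4.3.3). Spots flagged as non-uniform were not used, and the kept probes lacked 23 values in all, at most 1 a probe. Spots of a probe were averaged. Probes entered the fit where the scanner's flag put all arrays of 1 or more groups well above background, which left 36716 of 60273 probes. A gene was represented by its kept probe of highest mean signal. Of the probes, 31060 were named by a RefSeq accession in the array file, 8935 by their gene name, 410 by a synonym, and 19868 kept the name in the file.

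A limma model of 6 group means (eBayes with trend) was fitted to all kept probes, with Benjamini-Hochberg adjustment over them, and tested on simulated data. SE and 95% intervals are from this fit. Signals carry no count of molecules, so the number of arrays limits the precision. Alternatives were scaling to the 75th percentile, normexp background correction (offset 50), the deposited quantile normalized table, other probe filters, 1 probe a gene, only the arrays of a time point, no trend, array weights, the replicate number as a block, the methods' t-test and leaving out each culture. The members, pathway lists and marker lists were chosen with earlier results of these data known. Of each pathway list, at most the 6 called genes with the largest change against DMSO were named, and 1 gene that this rule selected is not reported here. Promoter windows were read from a RefSeq table in Python 3.11.15. No protein sequence and no chromosomal position of the probes was used here.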

Additional observations from a re-analysis of the deposited data

Results flagged for a closer look

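Among the members, 2 effects differed between the time points in a test of the difference itself. For Notch1 the effect of WS1442 was 0.64 on the log2 scale at 6 h and 0.04 at 24 h, and the difference of -0.60 had an adjusted p of 0.00681 in limma. All 9 other settings run and all 10 fits that left out a culture also called it, with differences from -0.70 to -0.51. All of these fits read the Notch1 probe for the RefSeq transcript. At the dim second Notch1 probe the difference was 0.02 ± 0.29 for WS1442 (limma adjusted p = 0.972). For MeOH eluate it was 0.83 ± 0.29 there (limma adjusted p = 0.11). For Lfng the effect of MeOH eluate was 0.97 at 6 h and -0.17 at 24 h, a difference of -1.135 (adjusted p = 0.0154). It was called in all 9 other settings and in 9 of 10 fits that left out a culture, and the exception was the fit without the first DMSO culture at 6 h (-0.90, adjusted p = 0.104). Time point and slide cannot be told apart. The DMSO level was 9.40 at 6 h and 10.12 at 24 h for Notch1, and 8.83 and 10.58 for Lfng.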

How the results depend on the processing

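Calls of the members kept their direction in every alternative run: 310 of 310 values of called effects had the same sign, and 227 were called again. Among effects that were not called, 1007 of 1042 values kept their sign, and 20 were called in an alternative. The number of members called with MeOH eluate at 6 h, 7 of 10, was 3 with scaling to the 75th percentile, 4 with normexp background correction, 3 with no filter on dim probes, 4 with only the arrays of the time point, and 3 with no trend in the variance prior, while it was 8 with array weights (Dll1 at an adjusted p of 0.0196) and with only probes above background on all 16 arrays (0.0497). For WS1442 at 6 h the number was 2, and it was 1 with normexp background correction, no filter, only the arrays of the time point or no trend. For MeOH eluate at 24 h it was 3, and 1 with array weights, which ended the calls of Hey1 and Hey2. Between the extracts at 24 h it was 1, and 2 with normexp background correction or only the arrays of the time point, and 0 with no filter or no trend in limma, where Mesp2 had adjusted p-values of 0.084 and 0.072; in the fit as reported 4 members had an unadjusted p under 0.05 there. For the change of the WS1442 effect between time points it was 1, and 3 with scaling to the 75th percentile and 2 with only probes above background on all 16 arrays.

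Leaving out 1 culture at a time gave 1 to 2 calls for WS1442 at 6 h, 2 to 5 for MeOH eluate at 6 h, 2 to 4 for WS1442 at 24 h and 1 to 3 for MeOH eluate at 24 h. Between the extracts it gave 1 call at 6 h in each case and 0 to 1 at 24 h, and for the change of the effect between time points 1 to 2 calls for WS1442 and 0 to 2 for MeOH eluate. The lowest counts against DMSO at 6 h came without the first DMSO culture, and for WS1442 also without the third WS1442 culture. With MeOH eluate at 24 h the count of 1 came without the first DMSO culture. Where a DMSO culture was left out, the other one was assumed to vary like the other groups. The methods' t-test, adjusted over all probes, called 0 members in each of the 6 comparisons within a time point. Unadjusted, it gave 1 member at 6 h with WS1442 and 6 with MeOH eluate, 3 and 2 at 24 h, and 2 and 1 between the extracts at 6 h and 24 h. At the limits of the study it gave 1 member, with MeOH eluate at 24 h. Over all genes the adjusted t-test called 0 and 4 at 6 h and 11 and 150 at 24 h against DMSO, and the limits of the study were passed by 58, 484, 271 and 448 genes.

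Replicate numbers are shared between groups. Deviations of same-numbered samples from their group means correlated by -0.105 to 0.302 at 6 h and -0.234 to 0.103 at 24 h, of which 1 of 7 was above 0.1 at each time. The deviations of the 2 DMSO cultures of a time point mirror each other, so their pairs cannot show whether replicates were paired. The highest correlation at 6 h, 0.302, joined the first WS1442 and the first MeOH eluate culture. Whether same-numbered samples belong together was therefore not settled. With the replicate block the number of members called was 1 for WS1442 at 6 h, 3 for MeOH eluate at 6 h, 2 for WS1442 at 24 h and 4 for MeOH eluate at 24 h. Scaling to the 75th percentile moved the share of higher genes among all calls between the extracts at 6 h from 38.1% to 24.9% and for the change of the WS1442 effect from 44.9% to 31.1%. The cause of these shifts was not tested. Signal over background limits Hey2 and the second probes of Dll1 and Notch1.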
